A study of Homo sapiens and Mus musculus with 13 samples.

Results

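The genes described here are 45 mouse genes of DNA replication and of the passage from G1 into S phase, chosen by symbol as a fixed list, out of 37991 genes in the deposited mouse tables. All 45 were found once, and all 45 passed the filter on low values, as did 13132 genes in all. RNA sequencing was done on a mouse haematopoietic progenitor line immortalized by HOXB8 and kept in stem cell factor and beta-estradiol. The edited cells are 3 NPM1c knock-in clones, each grown from a single cell after CRISPR/Cas9 insertion of an NPM1ca-GFP sequence and labelled 12, 18 and 4. The controls are 2 libraries of the parental line, labelled wild-type. All 5 libraries come from HOXB8-immortalized cells without drug treatment, so the comparison is between clones and a parental culture that share this background. Each clone is 1 derivation from 1 line, and the labels leave it unsaid whether both parental libraries were grown apart, so p-values may measure technical spread on that side. The human leukaemia libraries of the series are not used here.

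Replication starts where the origin recognition complex, Cdc6 and Cdt1 load the Mcm2 to Mcm7 ring onto DNA during G1. At S phase onset Cdc45 and the GINS complex join the ring to form the active helicase, with Mcm10 as an activation factor. DNA polymerase alpha with primase lays down primers, polymerases epsilon and delta extend them, and the RFC complex loads the PCNA clamp that holds the polymerases. Many of these genes are transcribed by E2F factors once cyclin E and its kinase have relieved repression by RB proteins, so their transcripts are widely used as markers of cycling cells. Nucleophosmin is an abundant nucleolar chaperone, and NPM1c is its leukaemia mutant that is exported to the cytoplasm.

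Values are read counts divided by a size factor per library, called normalised read counts here. The underlying reads were 12235174, 9427149 and 7358340 in clones 12, 18 and 4, and 9728260 and 99557475 in parental replicates 1 and 2. The 45 genes had between 30 reads (Gins3 in clone 4) and 57960 reads (Mcm7 in parental replicate 2). The heading inside each clone's table carries another clone number than the sample's title, so a number identifies a clone only by title. Npm1, the targeted gene, stood at 15141, 14144 and 14305 in clones 12, 18 and 4, against 25695 and 25714 in parental replicates 1 and 2. It was lower in every clone (log2 fold change -0.82, SE 0.067, adjusted p = 0.000533, limma), although a gene-level count does not separate the edited from the normal allele. All 12 listed progenitor markers were expressed in every library, with Kit, Cd34, Myb and Runx1 among them. Called higher in the clones were 3 of the 12 (Gata2, Myb and Ptprc), where 7.51% of all genes tested were. Mpo, the granule enzyme of myeloid progenitors, had the widest difference of that list and ran the other way, at 13845, 20009 and 7872 in clones 12, 18 and 4, against 42873 and 38610 in parental replicates 1 and 2. It was 3.14-fold lower without passing the test (adjusted p = 0.0629, limma), and its clones stood in the order 18, 12, 4 from high to low. Of the 9 mast cell and basophil markers, 4 of the 6 tested were higher in the clones, where 7.51% of all genes tested were. Their summed level was 5460 to 8016 in the clones and 1259 to 3490 in the parental libraries, with Fcer1a and Cma1 at 0 in clone 4 and both parental libraries. In the clones the largest part of that sum was Cpa3, at 2748, 3139 and 4388 in clones 12, 18 and 4. Its parental replicates 1 and 2 disagreed, at 2450 and 386, and it did not pass (adjusted p = 0.225, limma). The megakaryocyte list summed to 2045 to 3137 in the clones and 334 to 407 in the parental libraries, with Itga2b (1783 to 2675 in the clones, 196 to 223 in the parental libraries) as its 1 called gene of 4 tested. The B cell list summed to 2338 to 3083 in the clones and 5039 to 5269 in the parental libraries. In it 3 of 6 tested rows were lower, where 8.49% of all genes tested were. The erythroid list summed to 39.6 to 68.9 in the clones and 3.11 to 8.24 in the parental libraries, with Hba-a1 and Slc4a1 at 0 throughout. Hbb-b1, its only gene tested, made up most of the sum in the clones, at 61.6, 25.4 and 51.3 in clones 12, 18 and 4. Alas2 ran the other way, at 0 in the clones and 3.82 in parental replicate 2. The part of these lineage differences in the results below was not tested.

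Replication and G1/S transcripts were lower in the NPM1c knock-in clones than in the parental cells. Among the 45 genes, 15 fell and 30 did not pass the test (limma on log2(value + 1), Benjamini-Hochberg adjusted p under 0.05 over all 13132 genes), where 8.49% of all genes tested were called lower. None was called higher, where 7.51% of all genes were, and none was higher at an unadjusted p under 0.05 either. The median log2 fold change was -0.56 for the 45 genes and 0.01 for all genes tested, and 40 of the 45 had a fold change below 0, as did 48.9% of all genes. In 36 of the 45 every clone lay below both parental libraries, against 25.8% of all genes. In bulk RNA, fewer cells in S phase and less of these RNAs per cell cannot be told apart. The largest falls were in Tk1, Pola1, Gins1 and Rfc3, each lower by a little over 1 on the log2 scale. The number called depended on the test and on single libraries. Each count below is over all 45 genes and can hold genes outside the 15. Rrm1, not among the 15, had a log2 fold change of 0.16 with both parental libraries and -0.64 without replicate 2. A fit without a parental library keeps only 1, so its p-values hold none of the spread between the parental libraries. The number called lower was 16 with edgeR, where 9.35% of 12903 genes were called lower and 8.2% higher. With DESeq2 it was 25, where 6.82% were lower and 6.42% higher of 20236 genes, low-count genes included, so these shares do not compare with those of limma. With no filter on low values it was 8, where 3.73% of 20236 genes were called lower and 3.3% higher. It was 6 without clone 12 (4.23% of all genes lower, 3.57% higher) and 24 without clone 18 (7.06% lower, 5.67% higher). It was 7 without parental replicate 1, with 4 others called higher (4.38% of all genes lower, 9.36% higher), and 5 without parental replicate 2 (3.05% lower, 4.5% higher).

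**Figure D1:**
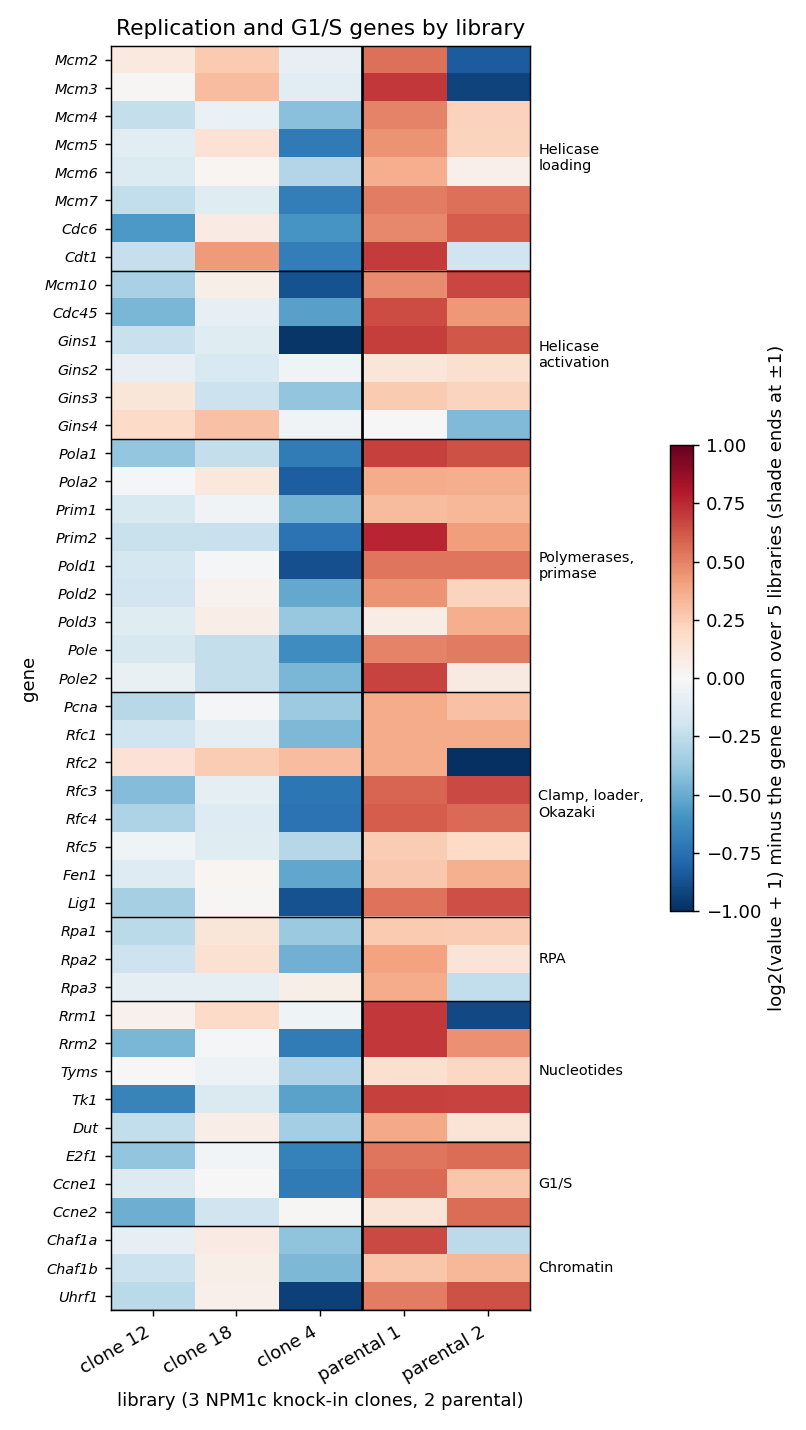
Heatmap of the 45 genes (rows, grouped by role) in the 3 knock-in clones and 2 parental libraries (columns). Colour is log2(value + 1) minus the gene's mean over the 5 libraries, and shades end at 1 in either direction. Most rows are blue in the clones, deepest in clone 4, and red in both parental columns. In parental replicate 2, Mcm2, Mcm3, Rfc2 and Rrm1 are deep blue, and Cdt1, Gins4, Rpa3 and Chaf1a are paler blue.

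**Figure D2:**
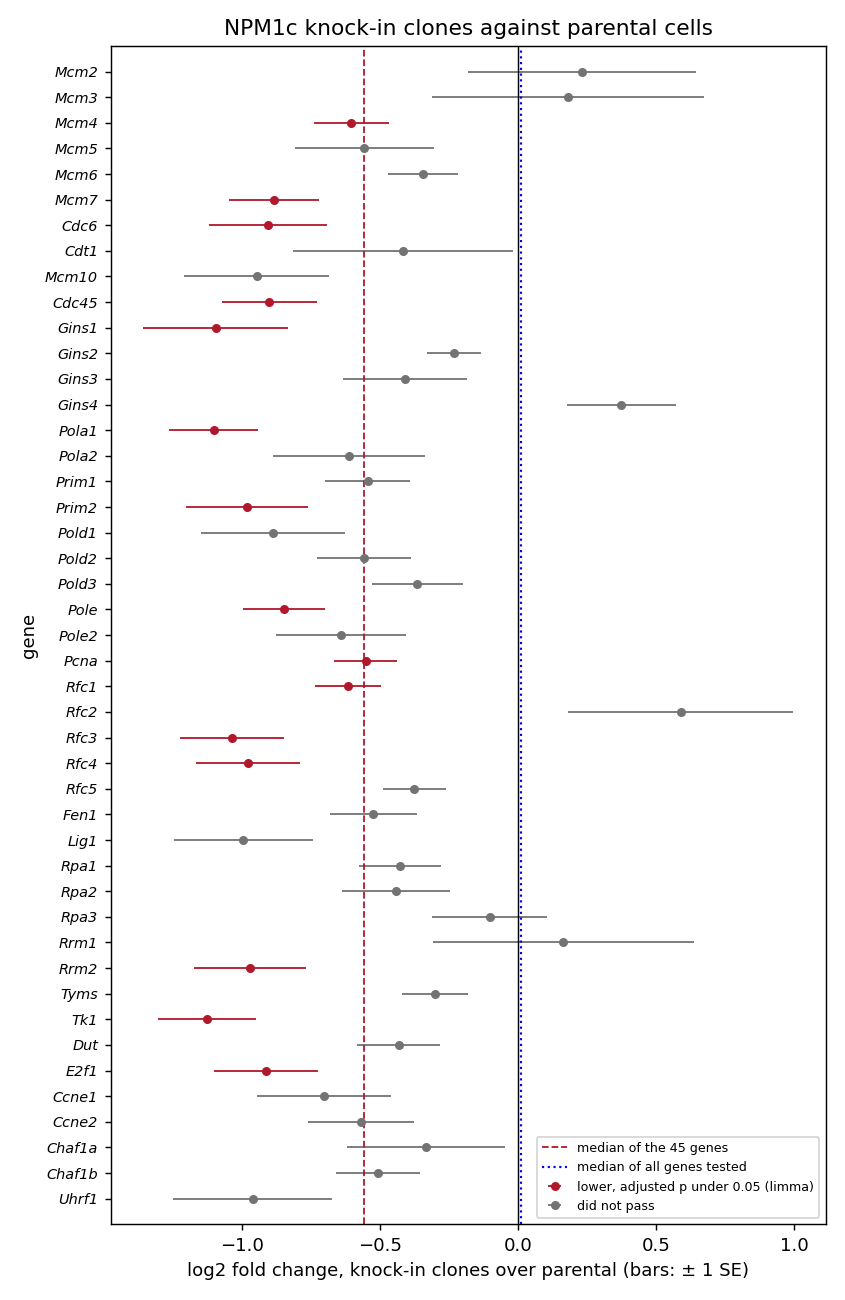
Log2 fold change of each of the 45 genes, knock-in clones over parental libraries, with bars of 1 SE from the limma fit (3 clones and 2 parental libraries). Red points mark the 15 genes called lower, and 5 genes (Mcm2, Mcm3, Gins4, Rfc2 and Rrm1) lie above 0 with none past the threshold.

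Among the 8 genes of helicase loading, Mcm4, Mcm7 and Cdc6 fell and 5 did not pass, where 8.49% of all genes tested were called lower. Mcm7, a subunit of the hexameric ring, was at 5072, 5531 and 3742 in clones 12, 18 and 4, against 8580 and 8849 in parental replicates 1 and 2. Mcm4, which sits beside Mcm7 in the ring, was at 1604, 1813 and 1416 in the clones in that order, against 2675 and 2222 in the parental libraries. Cdc6, the ATPase that brings the ring to origins, was at 544, 856 and 537 in the clones, against 1133 and 1235 in the parental libraries. No clone reached the lower parental value of any of these 3 genes. The log2 fold changes were -0.89 for Mcm7 (SE 0.162, adjusted p = 0.0141), -0.60 for Mcm4 (SE 0.136, adjusted p = 0.0228) and -0.91 for Cdc6 (SE 0.214, adjusted p = 0.0296, limma). Mcm7 did not pass without parental replicate 2 (adjusted p = 0.0648), nor Mcm4 without clone 12 (0.0814) or parental replicate 1 (0.107). Cdc6 did not pass without clone 12 (0.0998), clone 4 (0.0703), parental replicate 1 (0.0685) or parental replicate 2 (0.126). Mcm5 averaged 2449 ± 694 in the clones and 3510 ± 393 in the parental libraries, and Mcm6 4700 ± 515 in the clones and 5979 ± 895 in the parental libraries (SD, n = 3 and 2). In both genes every clone lay below both parental libraries, as in 25.8% of all genes tested. Neither passed (adjusted p = 0.196 for Mcm5 and 0.112 for Mcm6, limma). Mcm2, Mcm3 and Cdt1, whose parental libraries disagreed, are given further on.

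In the 6 genes of helicase activation, Cdc45 and Gins1 fell, where 8.49% of all genes tested were called lower. Cdc45, which couples the ring to GINS in the active helicase, was at 452, 586 and 425 in clones 12, 18 and 4, against 974 and 837 in parental replicates 1 and 2. Gins1, a GINS subunit, was at 218, 233 and 129 in the clones, against 412 and 392 in the parental libraries. Every clone was well below both parental values for either gene. The log2 fold changes were -0.90 for Cdc45 (SE 0.172, adjusted p = 0.0130) and -1.10 for Gins1 (SE 0.262, adjusted p = 0.0301, limma). Cdc45 missed the threshold without clone 12 (adjusted p = 0.0568) or parental replicate 1 (0.0519), and Gins1 without clone 12 (0.0651), parental replicate 1 (0.0971) or parental replicate 2 (0.102). The other GINS subunits showed smaller differences, none past the test. Gins2 averaged 1333 ± 53.0 in the clones and 1566 ± 30.4 in the parental libraries, and Gins3 73.3 ± 13.9 in the clones and 96.6 ± 1.85 in the parental libraries. Gins4 had a fold change above 0, averaging 209 ± 24.1 in the clones and 162 ± 34.5 in the parental libraries (adjusted p = 0.242), and its groups overlapped. Mcm10 averaged 1416 ± 439 in the clones and 2647 ± 254 in the parental libraries. Its log2 fold change of -0.95 did not pass (SE 0.263, adjusted p = 0.0618, limma) but did with DESeq2 (adjusted p = 0.00296). Mcm10 passed in 2 of the 10 other settings and in 2 of the 5 fits without a library.

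All 9 polymerase and primase genes had every clone below both parental libraries, as did 25.8% of all genes tested. Of the 9, 3 fell, where 8.49% of all genes were called lower. Pola1, the catalytic subunit of polymerase alpha, was at 451, 498 and 361 in clones 12, 18 and 4, against 946 and 916 in parental replicates 1 and 2. It was 2.15-fold lower on the log2(value + 1) scale (log2 fold change -1.10, SE 0.163, adjusted p = 0.00497, limma) and passed whichever library was left out, with a highest adjusted p of 0.0249. Fits without a parental library hold no spread on that side. Prim2, the large primase subunit, was at 159, 159 and 111 in the clones, against 314 and 248 in the parental libraries. Pole, the catalytic subunit of the leading strand polymerase epsilon, was at 1075, 1016 and 782 in the clones, against 1697 and 1721 in the parental libraries. Clone 4 was the lowest of the clones for both. Their log2 fold changes were -0.98 (SE 0.220, adjusted p = 0.0224) for Prim2 and -0.85 (SE 0.150, adjusted p = 0.0101, limma) for Pole. Without parental replicate 2 both stood at an adjusted p of 0.0503, and Prim2 also missed the threshold without clone 12 (0.0560) or parental replicate 1 (0.101). Prim1, the catalytic primase subunit, lay at the threshold, with 618 ± 93.5 in the clones and 894 ± 5.89 in the parental libraries (adjusted p = 0.0509 with limma and 0.0469 with edgeR). Prim1 passed in 6 of the 10 other settings and in 1 of the 5 fits without a library. Pold1, which carries the activity of the lagging strand polymerase delta, had the parental libraries almost equal at 4843 and 4840 but clones from 1816 to 3322. It did not pass (log2 fold change -0.89, SE 0.260, adjusted p = 0.0756, limma), but did without clone 4 (adjusted p = 0.00445). Pold1 passed in no other of the 5 fits without a library. The accessory subunits Pola2, Pold2, Pold3 and Pole2 had log2 fold changes of -0.61, -0.56, -0.37 and -0.64, none past the test.

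Of the 8 genes for the PCNA clamp, its RFC loader and Okazaki fragment maturation, Pcna, Rfc1, Rfc3 and Rfc4 fell. Over all genes tested, 8.49% were called lower. Pcna, the sliding clamp, was at 3912, 4681 and 3676 in clones 12, 18 and 4, against 6139 and 5796 in parental replicates 1 and 2. Rfc1, the large loader subunit, was at 2355, 2538 and 1978 in the clones, against 3497 and 3493 in the parental libraries. The clones of both genes kept the order 18, 12, 4 and stayed below the parental values. Rfc3, a small loader subunit, was at 478, 607 and 392 in the clones, against 970 and 1019 in the parental libraries. Rfc4, another small subunit, was at 459, 522 and 341 in the clones, against 867 and 844 in the parental libraries. The log2 fold changes were -1.04 for Rfc3 (SE 0.188, adjusted p = 0.0111) and -0.98 for Rfc4 (SE 0.190, adjusted p = 0.0138), -0.55 for Pcna (SE 0.115, adjusted p = 0.0173) and -0.62 for Rfc1 (SE 0.119, adjusted p = 0.0136, limma). Without parental replicate 2 none of the 4 passed (adjusted p = 0.0638 for Pcna, 0.0643 for Rfc1, 0.0570 for Rfc3 and 0.0573 for Rfc4). Pcna also missed the threshold without clone 12 (0.0737) or parental replicate 1 (0.0715), and Rfc1 without clone 12 (0.0507). A Pcna pseudogene, Pcna-ps2, was listed at 109 to 165 in the clones and 197 to 214 in the parental libraries, so some Pcna reads may have been assigned to either copy. Lig1, the ligase that seals Okazaki fragments, averaged 3948 ± 1169 in the clones and 7636 ± 379 in the parental libraries, a 1.99-fold lower level that did not pass (SE 0.252 on the log2 scale, adjusted p = 0.0513, limma). It passed without clone 4 (adjusted p = 0.00866, limma) or clone 18 (0.0164), but in no other of the 5 fits without a library. Fen1, the flap nuclease, averaged 3262 ± 606 in the clones and 4638 ± 189 in the parental libraries (adjusted p = 0.0635), and Rfc5 1079 ± 88.8 in the clones and 1398 ± 38.0 in the parental libraries (adjusted p = 0.0610, limma).

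Among the 5 genes of nucleotide supply, Tk1 and Rrm2 fell, where 8.49% of all genes tested were called lower. Tk1, the thymidine kinase of the salvage pathway, was at 334, 480 and 367 in clones 12, 18 and 4, against 853 and 848 in parental replicates 1 and 2. It was 2.18-fold lower (log2 fold change -1.13, SE 0.176, adjusted p = 0.00624, limma), and its highest adjusted p with any library left out was 0.0311. Tk1 and Pola1 were the only 2 of the 15 called genes that passed in all 5 fits without a library and in all 10 other settings run. The fits without a parental library hold no parental spread, so passing them is no check on it. Rrm2, the S phase subunit of ribonucleotide reductase, was at 1069, 1458 and 907 in the clones, against 2404 and 2013 in the parental libraries. Its log2 fold change was -0.97 (SE 0.203, adjusted p = 0.0209, limma), and it did not pass without clone 12 (adjusted p = 0.0822), parental replicate 1 (0.0780) or parental replicate 2 (0.0523). Tyms, which makes thymidylate, averaged 1450 ± 161 in the clones and 1780 ± 41.3 in the parental libraries (adjusted p = 0.133). Dut, which removes dUTP, averaged 1087 ± 167 in the clones and 1463 ± 175 in the parental libraries (adjusted p = 0.0938, limma). Neither passed the test, though both had every clone below both parental libraries, as did 25.8% of all genes tested.

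For G1/S control, E2f1 fell and the E cyclins did not pass, where 8.49% of all genes tested were called lower. E2f1, an activating E2F factor, was at 608, 788 and 501 in clones 12, 18 and 4, against 1164 and 1180 in parental replicates 1 and 2. Ccne1 was at 153, 168 and 103 in the clones, against 249 and 204 in the parental libraries. Ccne2 was at 491, 601 and 695 in the clones, against 755 and 1016 in the parental libraries. In all 3 every clone lay below both parental libraries, as in 25.8% of all genes tested. Ccne2 differed from the other pair in being highest in clone 4. The log2 fold changes were -0.91 for E2f1 (SE 0.188, adjusted p = 0.0171), -0.70 for Ccne1 (SE 0.243, adjusted p = 0.0930) and -0.57 for Ccne2 (SE 0.191, adjusted p = 0.0861, limma). E2f1 did not pass without clone 12 (adjusted p = 0.0695, limma) or without either parental library. Ccne2 passed without clone 4 (adjusted p = 0.0440, limma), but in no other of the 5 fits without a library.

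None of the 3 RPA genes, which coat single-stranded DNA, and none of the 3 chromatin genes passed. Of all genes tested, 8.49% were called lower. Rpa1 averaged 2525 ± 474 in the clones and 3360 ± 17.9 in the parental libraries (adjusted p = 0.0947), and Rpa2 744 ± 165 in the clones and 1000.3 ± 137 in the parental libraries (adjusted p = 0.174, limma). Uhrf1, which guides DNA methylation to new DNA, was among the genes with the widest spread between clones, at 3735, 4648 and 2353 in clones 12, 18 and 4, against 6429 and 7006 in parental replicates 1 and 2. Its log2 fold change of -0.96 did not pass (SE 0.287, adjusted p = 0.0829, limma), but did without clone 4 (adjusted p = 0.00916) or clone 18 (0.0383). Uhrf1 passed in no other of the 5 fits without a library. Chaf1b, a subunit of the histone chaperone that follows the fork, averaged 1178 ± 208 in the clones and 1657 ± 45.5 in the parental libraries (adjusted p = 0.0604, limma).

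The parental libraries disagreed in 8 of the 45 genes, always with replicate 2 below replicate 1. The ratio exceeded 1.5-fold in these 8, where 7.61% of all genes tested did so in that direction, and in 4 of them it exceeded 2-fold, against 2.83%. The reverse, replicate 2 above replicate 1 by over 1.5-fold, occurred in 0 of the 45 and in 4.71% of all genes. With 1 library each, these ratios have no replicate check. The parental libraries were within 1.2-fold of each other in 29 of the 45. Replicate 2 had 99557475 reads and replicate 1 had 9728260. Thinning replicate 2 to the depth of replicate 1 left the count at 8, but thinning adds counting noise only and keeps the expected ratios. Whether the depth difference has a part in the disagreement was not tested.

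Mcm2, Mcm3, Rrm1 and Rfc2 carried the widest disagreement, and their direction in the clones rested on which parental library was used. Mcm3 (ENSMUSG00000041859), a ring subunit, was at 1120, 1373 and 1034 in clones 12, 18 and 4, against 1813 and 585 in parental replicates 1 and 2. Rrm1 (ENSMUSG00000030978), the large subunit of ribonucleotide reductase, was at 1229, 1363 and 1159 in the clones, against 1942 and 639 in the parental libraries. Mcm2 (ENSMUSG00000002870), another ring subunit, was at 1211, 1354 and 1067 in the clones, against 1659 and 634 in the parental libraries. In these 3 the clones lay between the parental values, close to each other. Rfc2 (ENSMUSG00000023104), a small loader subunit, was at 601, 647 and 675 in the clones, against 702 and 258 in the parental libraries, so that the clones were just below replicate 1 and far above replicate 2. With both parental libraries none of the 4 passed, at log2 fold changes of 0.18 for Mcm3 (SE 0.493, adjusted p = 0.838), 0.16 for Rrm1 (SE 0.473, adjusted p = 0.848), 0.23 for Mcm2 (SE 0.413, adjusted p = 0.743) and 0.59 for Rfc2 (SE 0.407, adjusted p = 0.378, limma). Without parental replicate 1 all 4 were higher in the clones, Mcm3 by 1.99-fold, Rrm1 by 1.95-fold, Mcm2 by 1.90-fold and Rfc2 by 2.48-fold. Without parental replicate 2 the fold changes were -0.64 for Mcm3, -0.64 for Rrm1, -0.46 for Mcm2 and -0.13 for Rfc2. Each of these fits holds 1 parental library and no parental spread, so for these 4 genes only the fold changes are given. All 4 thus changed direction with the parental library left out.

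The 4 other genes with disagreeing parental libraries had ratios under 2-fold. Chaf1a, the large subunit of the histone chaperone that contains Chaf1b, was at 427, 479 and 343 in clones 12, 18 and 4, against 716 and 377 in parental replicates 1 and 2. Cdt1, the licensing factor, was at 294, 464 and 213 in the clones, against 562 and 301 in the parental libraries. Replicate 2 fell within the clones' range for both. Rpa3, the small RPA subunit, was at 219, 219 and 242 in the clones, against 301 and 196 in the parental libraries. Pole2, the second subunit of polymerase epsilon, was at 105, 93.5 and 80.0 in the clones, against 177 and 118 in the parental libraries, and was the only gene of the 8 whose groups did not overlap. Without parental replicate 1 the log2 fold changes of Chaf1a, Cdt1 and Rpa3 were above 0, at 0.13, 0.03 and 0.21, and without replicate 2 they were -0.80, -0.87 and -0.41. With both parental libraries none of Chaf1a, Cdt1, Rpa3 and Pole2 passed. Pole2 lay just past the 1.5-fold limit, and Gins4, at 1.35-fold, was the nearest gene inside it.

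**Figure D3:**
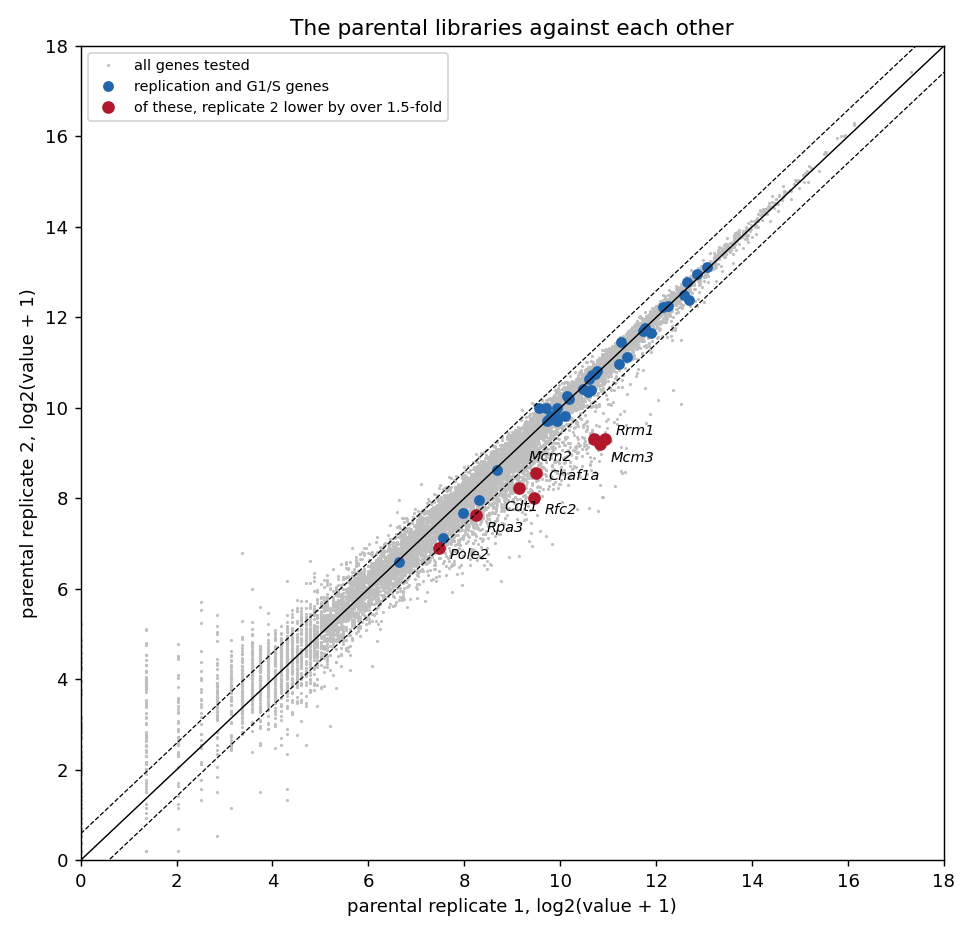
Parental replicate 2 (y axis) against parental replicate 1 (x axis), both as log2(value + 1), for all 13132 genes tested (grey) and the 45 replication and G1/S genes (blue and red). The solid line marks equal values and the dashed lines a 1.5-fold difference, and the 8 red genes lie below the lower dashed line with none of the 45 above the upper one.

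**Figure D4:**
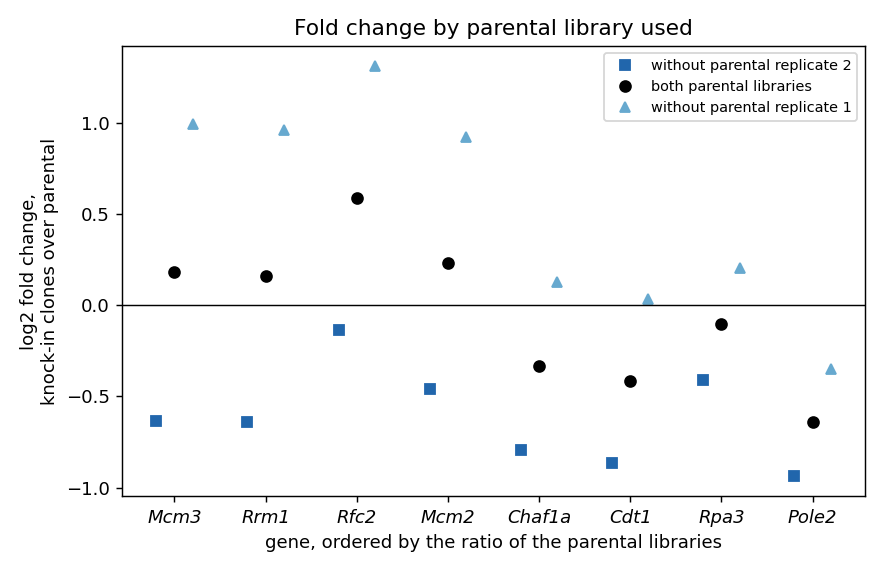
Log2 fold change, knock-in clones over parental, of the 8 genes whose parental libraries differed by over 1.5-fold, computed without parental replicate 2 (squares), with both libraries (circles) and without parental replicate 1 (triangles). Squares lie below 0 in all 8, and triangles lie above 0 in all but Pole2.

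The clones differed from each other in the same order across most of the 45 genes. Clone 4 was the lowest clone in 40 of the 45 and clone 18 the highest in 35, against 37.2% and 33.5% of all genes tested, and both held at once in 34 of the 45 and in 21.3% of all genes. The median log2 difference between the clone and the mean of the parental libraries was -0.36 in clone 18, -0.52 in clone 12 and -0.84 in clone 4, or 78.0%, 69.6% and 56.0% of the parental level. The medians over all genes tested were 0.02, 0.02 and 0.02 in the same order of clones. Each clone is 1 library, so the differences between clones have no replicate check. Clone 4 also had the fewest reads of the 3, and thinning every clone to its depth left it lowest in 40 genes, with clone 18 highest in 34. Thinning keeps the expected ratios, so a part of depth beyond counting noise was not tested.

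The spread between clones was unequal among the genes. The highest clone exceeded the lowest by over 1.5-fold in 15 of the 45, against 22.2% of all genes, and the median ratio was 1.42 for the 45 genes and 1.24 for all genes tested. Cdt1 (2.17-fold), Uhrf1 (1.97-fold), Pola2 (1.91-fold), Mcm10 (1.90-fold) and Lig1 (1.85-fold) had the widest ratios. Gins2 (1.08-fold), Rpa3 (1.11-fold), Rfc2 (1.12-fold), Rrm1 (1.18-fold) and Rfc5 (1.18-fold) had the narrowest. Gins2, Rpa3, Rfc2 and Ccne2 were highest in clone 4, as were 38.2% of all genes tested, and Tk1, Rfc2 and Ccne2 were lowest in clone 12.

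**Figure D5:**
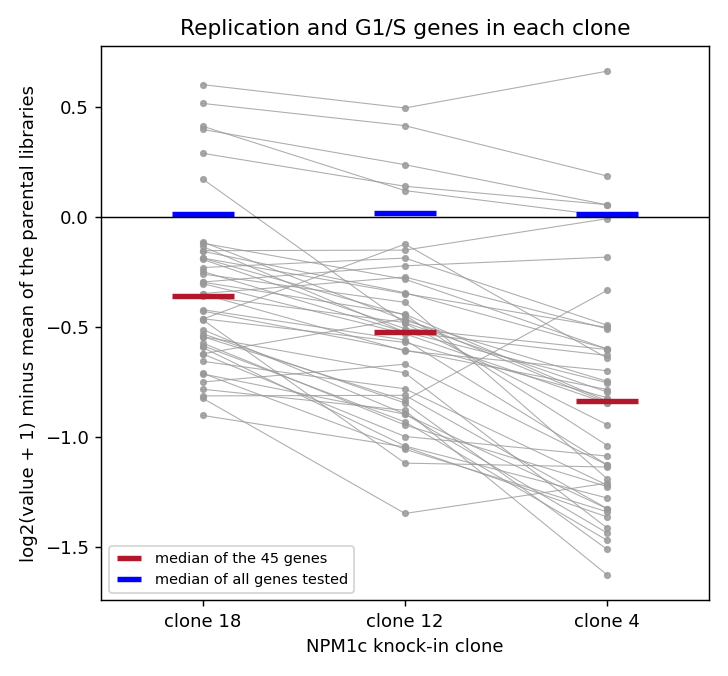
Each grey line is 1 of the 45 genes, drawn over the 3 knock-in clones as log2(value + 1) minus the mean of the parental libraries. Red bars mark the median of the 45 genes, which is -0.36 in clone 18, -0.52 in clone 12 and -0.84 in clone 4, and blue bars mark the median of all genes tested, near 0 in each clone.

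Related lists outside the 45 genes were taken from the same fit, in which 8.49% of all genes tested were called lower and 7.51% higher. The shares for fits without a library are given above. A list count of 1 or 2 in those fits is too small to set apart from them. In origin recognition and licensing partners, 6 of 16 fell and 10 did not pass, with a median log2 fold change of -0.48. The count was 3 without clone 12 and 1 without parental replicate 2. Orc1, the cell cycle regulated subunit of the origin recognition complex, averaged 163 ± 38.1 in the clones and 397 ± 2.92 in the parental libraries (log2 fold change -1.30, SE 0.216, adjusted p = 0.00791, limma). In fork protection and checkpoint genes, 4 of 12 fell and 8 did not pass, with a median of -0.31. The count was 1 without clone 12 and 2 without either parental library, and 1 gene was called higher without parental replicate 1. Chek1, the kinase that restrains S phase when forks stall, averaged 578 ± 91.9 in the clones and 1520 ± 92.9 in the parental libraries (log2 fold change -1.41, SE 0.158, adjusted p = 0.00162, limma). In other polymerase and clamp factors, 5 of 15 fell and 10 did not pass, with a median of -0.37. The count was 3 without clone 12 and 2 without either parental library. Atad5, which unloads PCNA, averaged 718 ± 144 in the clones and 1626 ± 102 in the parental libraries (log2 fold change -1.20, SE 0.180, adjusted p = 0.00567, limma). In histone supply and chromatin replication, 4 of 12 fell and 8 did not pass, with a median of -0.46, and Nasp, a histone chaperone, averaged 2418 ± 371 in the clones and 4413 ± 183 in the parental libraries (adjusted p = 0.00629, limma). The count in that list was 1 without clone 12 or parental replicate 2 and 2 without parental replicate 1, when 1 gene was called higher.

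Other E2F, RB and G1/S regulators held 7 lower, 1 higher and 15 that did not pass of 23, where 8.49% of all genes tested were lower and 7.51% higher. The median of that list was -0.40. The count lower was 4 without clone 12 or parental replicate 2, and the count higher ranged from 0 to 2 with a library left out. Cyclin A, encoded by Ccna2, averaged 1699 ± 243 in the clones and 3924 ± 284 in the parental libraries, and Cdk2, the partner kinase of cyclins E and A, 846 ± 27.7 in the clones and 1328 ± 96.6 in the parental libraries (adjusted p = 0.00156 and 0.00853, limma). Rbl1, the RB relative p107 and itself an E2F target, and Skp2, which targets the inhibitor p27 for degradation, fell with log2 fold changes of -0.88 and -0.92 (adjusted p = 0.00561 and 0.0113, limma). Cdkn1a, which encodes the CDK inhibitor p21, was the 1 gene that rose, with 575 ± 44.0 in the clones and 369 ± 53.7 in the parental libraries (log2 fold change 0.64, SE 0.152, adjusted p = 0.0275, limma). It did not pass without clone 12 (adjusted p = 0.0950), clone 4 (0.0518) or parental replicate 2 (0.123). Nucleotide metabolism genes outside the 45 had 2 lower, 3 higher and 17 that did not pass of 22 rows, and a median of -0.09, where 8.49% of all genes tested were lower and 7.51% higher. With a library left out, 1 to 3 rows were lower and 0 to 3 higher, with 0 higher without clone 12 or parental replicate 2. So few calls lie near the share over all genes and are no result about this list. Paics and Ppat, enzymes of purine synthesis, were the 2 that fell, and the nucleoside diphosphate kinases Nme1 and Nme2 (2 rows with that symbol, which may share reads) rose. Without clone 12, Ppat was at an adjusted p of 0.0791, Nme1 at 0.0901 and the Nme2 rows at 0.111 and 0.160, and without either parental library none of these 4 rows passed (0.0598 to 0.149). Nme1 and both Nme2 rows also missed the threshold without clone 18 (0.0714, 0.0702 and 0.111). In the G2 and mitosis list 15 of 28 fell and 13 did not pass, where 8.49% of all genes tested were called lower. Its median was -0.64 beside the -0.56 of the 45 genes. The count was 7 without either parental library, with 1 gene called higher without parental replicate 1. Clone 4 was lowest in 26 of these 28 and in 37.2% of all genes tested. Whether the 45 genes and the mitotic genes differ was not tested. Of the 28 genes with the smallest p in these 7 lists (up to 4 each), 12 passed whichever library was left out. These were Orc1, Chek1, Atad5, Ccna2, Rbl1, Cdk2, Skp2, Paics, Nasp, Hmmr, Cdk1 and Nuf2, and Cdkn1a was not among the 28. Passing without a parental library is no check on the spread between the parental libraries.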

How the data were processed

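Libraries were made with the NEBNext Ultra II kit, per the labels' protocols. Tools named by the submitters' processing notes are STAR 2.6.1, DESeq2 and RSEM, beside the builds mm9 and hg19, and their roles, the annotation and any use of strand were not given in the sources used here. The authors deposited 1 signal value per Ensembl gene and library. In each library 100% of the values were whole multiples of 1 step (tolerance 0.01), as read counts divided by a size factor would be, so whole reads could be recovered. Groups and clone numbers came from sample titles.

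The main test was limma 3.58.1 (R 4.3.3) with trend and robust moderation on log2(value + 1), for genes with a mean of at least 10 over the 5 libraries, Benjamini-Hochberg adjusted over 13132 genes at 0.05. Fold changes on this scale understate those of genes with few reads. Alternatives were edgeR 4.0.16 and DESeq2 1.42.0 on recovered reads, other pseudocounts, filters and scalings, and each library left out. The fit was tested on simulated data. Differences between replicates exceeded counting noise, with a chi-square per degree of freedom of 6.11 to 11.4 between clones and 25.5 between parental libraries. Depth was 7358340 to 99557475 reads, and the comparison rests on 3 clones against 2 parental libraries.

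The 45 genes, the other lists and the tests were chosen with earlier results of these data known. Per-library values are given for called genes, for genes whose parental libraries differed by over 1.5-fold and for Pcna, E2f1, Ccne1 and Ccne2, and up to 4 called genes with the smallest p could be named from each other list. Cdkn1a and any gene outside that rule were named after their values were seen. Spi1, Adgre1 and Rad9a were looked up under the older symbols Sfpi1, Emr1 and Rad9, and Ticrr and Rmi2 were not found. Cell type lists for granulocytes and monocytes (1 of 4 tested higher), T and NK cells (0 tested), dendritic cells (1 of 1 lower, Flt3) and stromal and endothelial cells (1 of 2 higher, Pecam1) were also read. Over all genes tested, 7.51% were higher and 8.49% lower. Mouse sequences, gene lengths and coordinates were not used here.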

Additional observations from a re-analysis of the deposited data

How the results depend on the processing

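The 45 genes had 15 called lower and 0 higher. The count lower was 8 with no filter on low values and 25 with DESeq2, and ranged from 5 to 24 when a library was left out, with 0 to 4 higher. Over all genes tested, 1115 were lower (400 to 1126 without 1 library) and 986 higher (468 to 1230). The number of genes tested grows with no filter and with DESeq2, and samples become fewer without a library. The cause of the higher DESeq2 count was not tested. Pseudocounts of 0.5 and 5, a minimum mean of 50, TMM scaling, library totals, thinning and non-robust moderation left the count lower between 15 and 19. The median log2 fold change of the 45 genes was -0.69 to -0.42 without 1 library.

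Direction reversed for genes near 0 or with disagreeing parental libraries. Mcm3 was at -0.0027 with edgeR and -0.026 with DESeq2, and Rrm1 at -0.022 and -0.044. Without 1 library, log2 fold changes ranged from -0.867 to 0.032 for Cdt1, -0.411 to 0.206 for Rpa3, -0.795 to 0.129 for Chaf1a, -0.461 to 0.924 for Mcm2, -0.635 to 0.996 for Mcm3, -0.134 to 1.31 for Rfc2 and -0.638 to 0.964 for Rrm1, the highest without parental replicate 1 and the lowest without replicate 2. At 2-fold in place of 1.5-fold, 4 genes had parental replicate 2 below replicate 1. The thinning of clones and the thinned parental count were chosen after seeing the data. Planned promoter motifs were not run. No paired analysis was possible because clones and parental libraries share no replicate number.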

Other observations

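The disagreement between the parental libraries extended beyond the 45 genes in the same direction. Of 128 rows tested in the 7 related lists, 16 had parental replicate 2 below replicate 1 by over 1.5-fold and 0 had it above, where 7.61% and 4.71% of all genes tested did. Shmt2, the mitochondrial serine hydroxymethyltransferase, was at 980, 1190 and 1052 in clones 12, 18 and 4, against 1255 and 414 in parental replicates 1 and 2. Dnmt1, the maintenance DNA methyltransferase that Uhrf1 recruits, was at 1897, 2210 and 1594 in the clones, against 2562 and 972 in the parental libraries. The clones lay between the parental values for both, as for Mcm2, Mcm3 and Rrm1. Ccnb2, a mitotic cyclin, was at 396, 471 and 410 in the clones, against 587 and 240 in the parental libraries, with the clones again between them. Mki67, a marker of cycling cells, was at 1907, 2024 and 1422 in the clones, against 2804 and 1485 in the parental libraries, where replicate 2 fell inside the clones' range. These genes were named after their values were seen, and the ratios compare 2 libraries.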
